A study of Mus musculus with 9 samples.

Results

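The 10 genes described here encode enzymes that remove reactive oxygen species or supply the thiols that do so. By symbol they are Hmox1, Srxn1, Txnrd1, Gclc, Gclm, Nqo1, Gpx2, Sod1, Sod2 and Cat, taken by name from a liver expression table of 24341 genes, in which all 10 had a value in every mouse. The table came from 3′ mRNA sequencing (QuantSeq) of the livers of 9 wild-type C57BL/6 mice, 48 h after treatment. Anti-CD40, an agonistic antibody that activates the CD40 receptor on immune cells, was given to 3 mice (mice 2, 5 and 9), and 6 control mice (mice 3, 4, 7, 8, 11 and 12) are labelled PBS. No age or batch is in the sample labels, and the study's methods describe sex-matched adult mice and leave out antibody-treated mice whose blood B cells did not fall. The comparison asks how genes of the liver's defence against oxidants stood after systemic activation of CD40.

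NRF2, the protein encoded by Nfe2l2, is the main transcription factor of the oxidant response. KEAP1 holds it in the cytoplasm and marks it for degradation until oxidants or electrophiles modify KEAP1, and NRF2 then pairs with a small MAF protein on antioxidant response elements in the DNA. Hmox1, Srxn1, Txnrd1, Gclc, Gclm, Nqo1 and Gpx2 are well-known NRF2 targets, while the superoxide dismutases (Sod1, Sod2) and catalase (Cat) are core enzymes that hepatocytes, the main cell of the liver, carry in abundance.

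After anti-CD40 the 10 genes did not move together. Hmox1, Srxn1, Sod2 and Gpx2 rose, Sod1 and Cat fell, and Gclc, Gclm, Txnrd1 and Nqo1 did not pass the test. Thus 6 of 10 genes had an adjusted p under 0.05 in limma, beside 45.1% of the 13807 genes tested, a share that makes a change of any kind common in these livers. By direction, 4 were higher, where 23.5% of all genes tested were, and 2 were lower, where 21.7% were. All 10 genes passed the low-value filter, a mean of at least 0.1 FPKM over the 9 mice, and Gpx2 did so only through the anti-CD40 mice, where it was high. The values of the anti-CD40 and control mice did not overlap in the same 6 genes, and in 42.4% of all genes tested. The median log2 fold change was -0.010 over the 10 genes and 0.0056 over all genes tested. Changes are given as the log2 fold change of FPKM + 0.1, where FPKM is the fragment count divided by transcript length and library size. Levels of different genes are not compared, because 3′ reads do not scale with transcript length and FPKM divides by it.

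**Figure D1:**
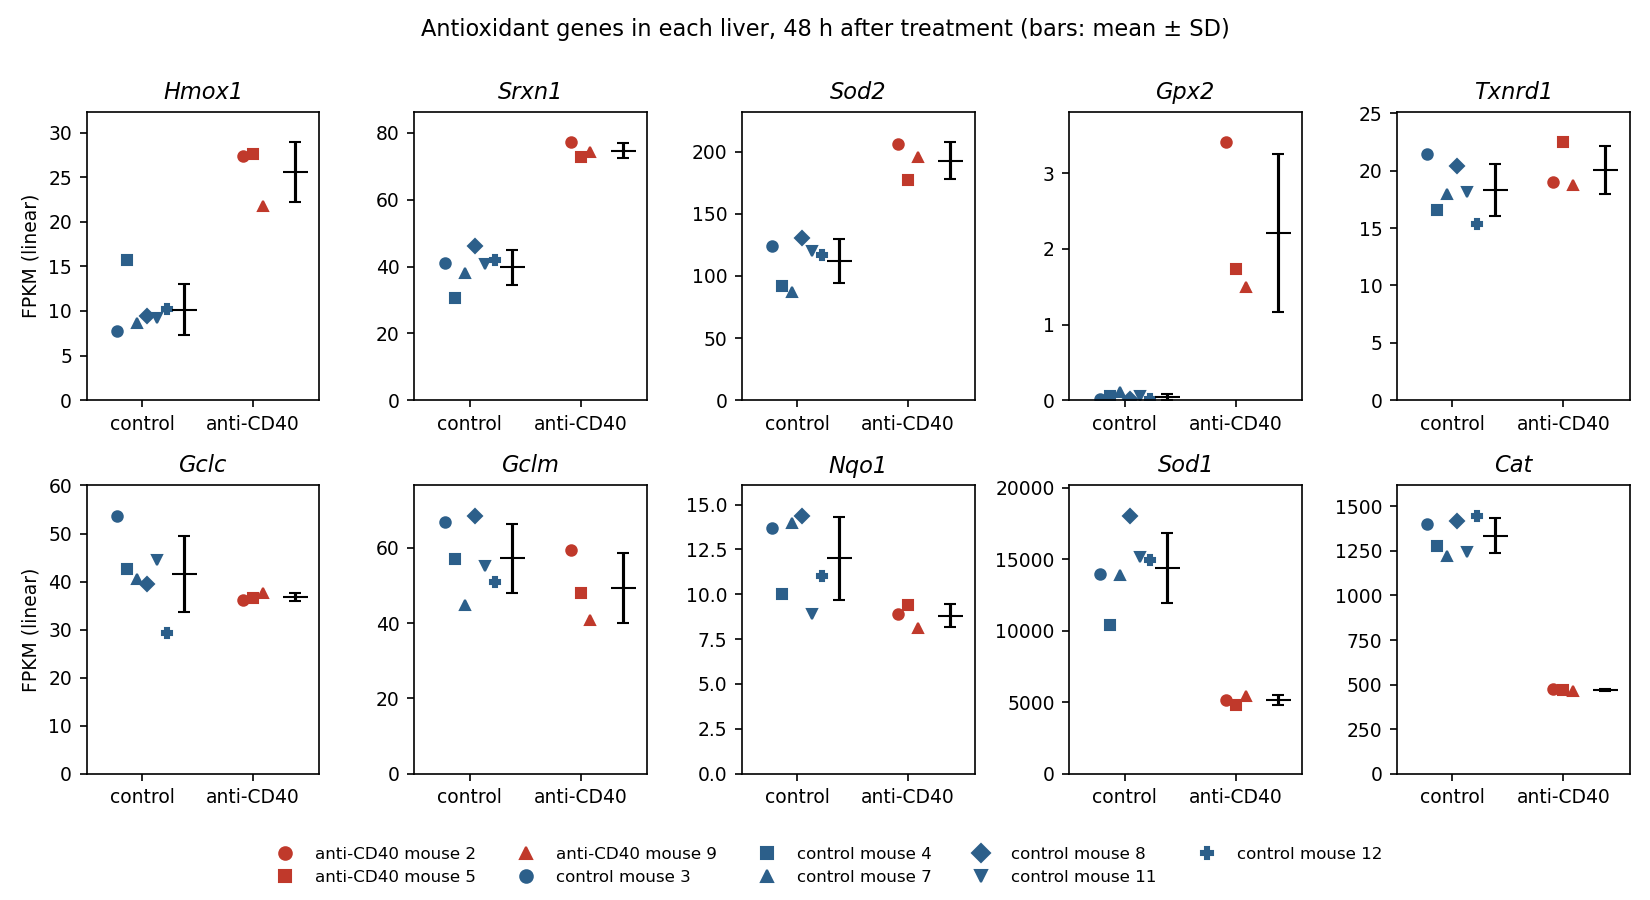
FPKM (linear axis) of each of the 10 genes in 6 control and 3 anti-CD40 livers, 1 symbol per mouse, with the mean and SD beside each group. All anti-CD40 mice sit above all control mice for Hmox1, Srxn1, Sod2 and Gpx2 and below them for Sod1 and Cat, and the groups overlap for Txnrd1, Gclc, Gclm and Nqo1.

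The libraries of the groups also differed in other ways. The serum amyloid genes Saa1, Saa2 and Saa3 accounted for 25.4% to 25.9% of all FPKM in anti-CD40 livers, against 0.0449% to 0.3803% in controls. With these genes left out and each library rescaled, the median of all genes tested moved to 0.35, an upward shift of 0.34, and rises went from 52.0% to 77.4% of the genes called. Before this rescaling, each library's median ratio to the geometric mean (genes above the floor in every mouse) was similar. It was 1.004 to 1.007 in anti-CD40 livers and 1.006 to 1.01 in controls. The rescaling moved the groups off this balance, and it rests on summed FPKM rather than on reads. Depth per library is not in the table, but the steps between low values placed it between 0.870 and 1.13 times the geometric mean of the 9 mice. Summed hepatocyte markers ranged from 15078 to 19363 FPKM in anti-CD40 livers and from 38921 to 79246 in controls, with all 11 markers in the table passing the low-value filter. Kupffer cell markers summed to 116 to 127 against 504 to 798, monocyte and macrophage markers to 879 to 1194 against 98.3 to 213, and neutrophil markers to 4220 to 5207 against 18.4 to 156. In whole tissue, fewer cells of a type and less RNA per cell cannot be told apart.

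Promoter sequence was at hand for 8 of the 10 genes, from RefSeq on GRCm38.p6 (the mm10 assembly), each window running from 250 bases before to 50 bases after the start site. The core of the antioxidant response element, TGACNNNGC on either strand, was found in windows of 4 genes, and in 12.4% of all 32851 promoters. That share counts promoters and not genes, and Txnrd1 had several windows, not all of them with the core. These 4 genes went different ways in the livers: Srxn1 rose, Sod1 fell, and Gclm and Txnrd1 did not pass the test. The windows of Srxn1, Sod1 and Gclm are printed for that reason, 5′ to 3′ on the plus strand, which is the strand of all 3 genes. Capitals mark the element core in either of its forms, TGACNNNGC or TGAGNNNGC (the latter found in 17.6% of all promoters), read on either strand.
Srxn1, chr2:152105274-152105573: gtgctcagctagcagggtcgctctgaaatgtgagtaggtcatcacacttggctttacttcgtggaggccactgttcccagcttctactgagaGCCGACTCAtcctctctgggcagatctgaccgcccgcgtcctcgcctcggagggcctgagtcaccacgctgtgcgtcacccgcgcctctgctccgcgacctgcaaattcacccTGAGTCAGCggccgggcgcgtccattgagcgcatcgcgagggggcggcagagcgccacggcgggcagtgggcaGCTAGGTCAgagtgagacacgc
Sod1, chr16:90220512-90220811: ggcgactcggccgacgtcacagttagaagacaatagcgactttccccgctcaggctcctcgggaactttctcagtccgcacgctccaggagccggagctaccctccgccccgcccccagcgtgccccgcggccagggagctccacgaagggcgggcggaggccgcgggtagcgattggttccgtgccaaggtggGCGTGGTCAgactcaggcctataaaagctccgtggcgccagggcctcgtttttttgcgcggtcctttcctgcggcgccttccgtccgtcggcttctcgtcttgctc
Gclm, chr3:122245307-122245606: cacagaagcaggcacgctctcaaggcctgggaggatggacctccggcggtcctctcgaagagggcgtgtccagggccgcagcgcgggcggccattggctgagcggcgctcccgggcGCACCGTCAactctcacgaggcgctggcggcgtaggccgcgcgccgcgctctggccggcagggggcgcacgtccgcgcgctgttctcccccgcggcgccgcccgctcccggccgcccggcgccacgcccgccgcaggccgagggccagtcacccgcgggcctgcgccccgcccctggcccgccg

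Positions give the leftmost base of a match, counted from 1 at the start site. Srxn1 carried 3 such cores, TGACCTAGC at 29 and TGAGTCGGC at -158 on the opposite strand and TGAGTCAGC at -45 on the gene's own strand. The last of these overlaps 1 of its 2 copies of the AP-1 motif TGANTCA, a motif found in 7.81% of all promoters and in no window of the other 7 genes. Sod1 carried TGACCACGC at -56 and Gclm TGACGGTGC at -134, both on the opposite strand, and 1 window of Txnrd1 carried TGACAAAGC at -92 on the opposite strand. No motif match in these windows was tested for binding or for a link to the changes, and sequence outside the windows was not searched. Sod2, which rose, carried no core. Its window held 1 match to the NF-kB consensus, GGGGTTCCCC at -83, which was found in 4.50% of all promoters and in none of the other 7 genes, and which stands in capitals here.
Sod2, chr17:13007589-13007888: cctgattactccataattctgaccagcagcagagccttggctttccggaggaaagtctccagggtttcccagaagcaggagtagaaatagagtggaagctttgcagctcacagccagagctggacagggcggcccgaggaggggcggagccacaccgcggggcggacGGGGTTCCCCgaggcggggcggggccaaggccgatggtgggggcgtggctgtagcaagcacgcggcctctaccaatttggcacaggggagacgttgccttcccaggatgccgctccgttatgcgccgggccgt

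Hmox1 encodes heme oxygenase 1, the inducible enzyme that splits heme into biliverdin, iron and carbon monoxide. It lies on mm10 chromosome 8, positions 75093618 to 75100593. Anti-CD40 mice 2, 5 and 9 had 27.4, 27.6 and 21.8 FPKM, and the control mice ran from 7.80 to 15.7 with a median of 9.30. Every anti-CD40 mouse was above every control mouse, and control mouse 4 stood apart from the other controls, of which the next highest had 10.2. The means were 25.6 ± 3.32 (SD, n = 3 mice) and 10.2 ± 2.82 (SD, n = 6), which is 1.35 ± 0.20 (SE) as a log2 fold change (limma adjusted p = 3.46e-04). Of all genes tested, 89.6% had a lower log2 fold change.

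The constitutive isoenzyme Hmox2 had 2.82 ± 0.928 FPKM (SD, n = 3) in anti-CD40 mice against 3.17 ± 0.926 (SD, n = 6) in controls and did not pass the test (log2 fold change -0.17, limma adjusted p = 0.642). The table gives Hmox2 a position that also covers Cdip1. Dividing one gene by another within a library takes out the scaling of that library. The log2 ratio of Hmox1 to Hmox2 was 3.89, 3.07 and 2.61 in anti-CD40 mice 2, 5 and 9, while controls spanned 1.02 to 2.49. The ratio was 2.88-fold higher after anti-CD40, with no overlap (exact permutation p = 0.0238, 2-sided, the smallest that 3 against 6 mice can give, and 0.0298 adjusted over the 5 gene pairs compared). Without anti-CD40 mouse 2 the Hmox2 change turned to 0.13.

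Srxn1, which encodes sulfiredoxin 1, the enzyme that repairs over-oxidized peroxiredoxins, lies on chromosome 2 from 152105524 to 152111376. Mice 2, 5 and 9, given anti-CD40, had 77.2, 72.7 and 74.2 FPKM. The control mice ran from 30.6 to 46.2, with a median of 40.9. The anti-CD40 mice lay close together and well above the highest control. The means were 74.7 ± 2.26 (SD, n = 3) and 39.8 ± 5.21 (SD, n = 6), a 1.88-fold difference in FPKM (log2 fold change 0.92 ± 0.13, SE, limma adjusted p = 2.33e-04).

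Sod2 encodes the manganese superoxide dismutase of the mitochondrial matrix, which turns superoxide into hydrogen peroxide and is a known target of inflammatory signalling. It lies on chromosome 17 from 13007839 to 13018119. In mice 2, 5 and 9 (anti-CD40) the FPKM was 206, 177 and 195, while control mice ran from 87.2 to 131 with a median of 118. All anti-CD40 mice were above all controls. The means were 193 ± 14.7 (SD, n = 3) and 112 ± 17.8 (SD, n = 6), and the log2 fold change was 0.80 ± 0.15 (SE, limma adjusted p = 0.00138), and 1.24 under quantile normalization.

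Gpx2, best known as the glutathione peroxidase of the gut lining, removes peroxides with glutathione and lies on chromosome 12 from 76792335 to 76795554. Its level was 3.41, 1.73 and 1.495 FPKM in mice 2, 5 and 9 of the anti-CD40 group, and in the control mice it ran from the table's floor of 0.01 to 0.112, with a median of 0.0331. Anti-CD40 mouse 2 was highest, and 3 control mice were listed at the floor. The steps between low values correspond to 65, 31 and 25 reads in mice 2, 5 and 9 and 0 to 2 reads in each control mouse, or 121 against 4 reads in all. Per unit of depth that is a ratio of 55.5, with a 95% interval of 21.1 to 206.8 that covers counting error only. The log2 fold change was 3.97 ± 0.31 (SE, limma adjusted p = 6.23e-06) and rests on the value added before the logarithm, being 1.58 with 1 and 5.67 with 0.01. Of all genes tested, 99.3% had a lower log2 fold change. Fntb lies on the other strand at this place and had 1.08 ± 0.120 (SD, n = 3) and 0.823 ± 0.321 FPKM (SD, n = 6), and whether the counting used strand is not given in the sources used here.

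These 4 rises stood beside rises of leukocyte markers. Of 12 neutrophil markers, 9 were tested and called higher, but 4 of them (Cxcr2, Mmp8, Ltf and Ngp) passed the low-value filter only through the anti-CD40 mice, and Mpo and Elane were too low to be tested. Of 11 monocyte and macrophage markers, 9 were called higher, with Chil3 passing the filter only through the anti-CD40 mice, and all 10 Kupffer cell markers were called lower. Cholangiocyte markers summed to 69.9 to 101 FPKM in anti-CD40 livers, highest in mouse 2, and to 10.8 to 19.7 in controls, with Sox9 and Spp1 among those called higher while Krt7, Krt19 and Epcam were not called. Acinar pancreas markers summed to 1485 in anti-CD40 mouse 5, but to 28.5 and 35.9 in anti-CD40 mice 2 and 9, against 72.2 to 196 in the control mice. Cela1 carried most of the control sums, with a control mean of 106 FPKM, and the other acinar markers had control means of 2.29 or less. Amy2a5, also an acinar marker, was at the floor in every mouse. The part of these cells in the rises was not tested. Control mouse 4 had the highest summed red cell and neutrophil markers of the controls. Without it and anti-CD40 mouse 5 (a pair chosen after the data were seen), 4 of the 10 genes were called higher and 2 lower.

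Sod1, the copper and zinc superoxide dismutase of the cytosol, went the other way from Sod2. It lies on chromosome 16 from 90220742 to 90226324. FPKM values of 5182, 4765 and 5442 were seen in anti-CD40 mice 2, 5 and 9, and control mice ran from 10404 to 18014 with a median of 14457. The highest anti-CD40 mouse lay below the lowest control, which was mouse 4. The means were 5130.0 ± 342 (SD, n = 3) and 14385 ± 2463 (SD, n = 6), so that control mice had 2.80 times the FPKM of anti-CD40 mice (log2 fold change -1.47 ± 0.17, SE, limma adjusted p = 7.14e-05). With no filter on low values the adjusted p was 0.0727. Scaf4 lies on the other strand at this place, at 1.101 ± 0.270 (SD, n = 3) and 0.933 ± 0.164 FPKM (SD, n = 6).

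Cat encodes catalase, the peroxisomal enzyme that breaks hydrogen peroxide down to water and oxygen, and lies on chromosome 2 from 103453904 to 103485153. Catalase transcripts stood at 475, 471 and 465 FPKM in anti-CD40 mice 2, 5 and 9. Control mice ran from 1224 to 1447, with a median of 1339. The anti-CD40 values differed among themselves by far less than the distance to the lowest control. The means were 470.4 ± 4.99 (SD, n = 3) and 1335 ± 98.2 (SD, n = 6), which is 2.84 times as much in control mice (log2 fold change -1.501 ± 0.10, SE, limma adjusted p = 2.70e-06). Of all genes tested, 4.30% had a lower log2 fold change than Cat and 4.48% a lower one than Sod1. The summed hepatocyte markers were lower in every anti-CD40 mouse as well, with 8 of 11 called lower and 1 (Apob) higher. Apoa2 and Ahsg weighed most in the control sums (means of 25775 and 14414 FPKM), and Hnf4a and Tat were not called. The part of hepatocytes in the falls of Sod1 and Cat was not tested.

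The ratio of the superoxide dismutases within a library also separated the groups. The log2 ratio of Sod2 to Sod1 was -4.65, -4.75 and -4.80 in anti-CD40 mice 2, 5 and 9, while controls spanned -7.31 to -6.81. The mean was -7.00 ± 0.188 (SD, n = 6) in controls and -4.73 ± 0.0745 (SD, n = 3) after anti-CD40, a 4.82-fold higher ratio (exact permutation p = 0.0238, adjusted 0.0298). Among the glutathione peroxidases, Gpx1, the abundant form in hepatocytes, was at 4177 ± 32.2 FPKM (SD, n = 3) in anti-CD40 mice against 9198 ± 1044 (SD, n = 6) in controls, and its log2 fold change was -1.13 (limma adjusted p = 9.55e-05, and 0.0521 with no filter on low values). The log2 ratio of Gpx2 to Gpx1 was -10.9 ± 0.616 (SD, n = 3) against -16.0 ± 0.489 (SD, n = 6), a difference of 5.10 that again rests on the value added to low FPKM (exact permutation p = 0.0238, adjusted 0.0298). Gpx2 and Gpx1, each alone, also lay apart in opposite directions. For both pairs the permutation p could only be the smallest possible and adds nothing to the separate results. Both count in the adjustment over all gene pairs.

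**Figure D2:**
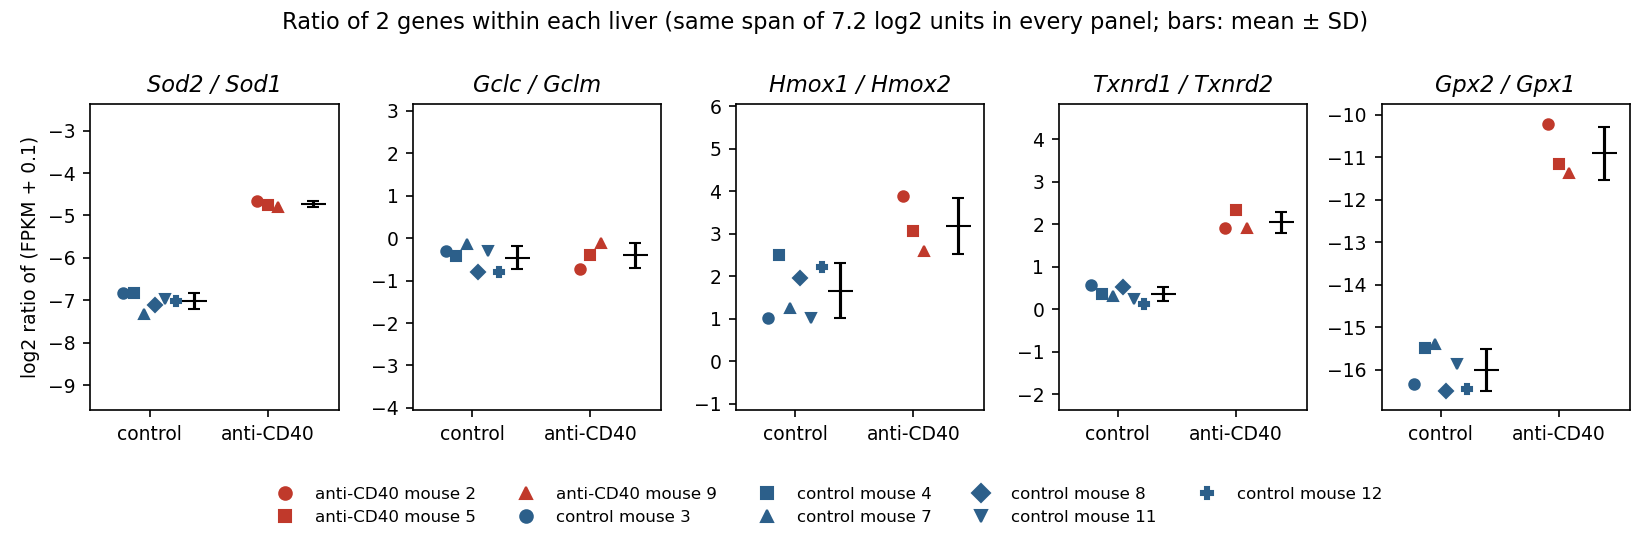
Log2 ratio of 2 genes, each as FPKM + 0.1, within each liver for 5 gene pairs, with the mean and SD beside the groups and the same span on every vertical axis. The groups are apart for Sod2 to Sod1, Hmox1 to Hmox2, Txnrd1 to Txnrd2 and Gpx2 to Gpx1, and they overlap for Gclc to Gclm.

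Txnrd1 encodes the cytosolic thioredoxin reductase, which keeps thioredoxin reduced at the expense of NADPH. It lies on chromosome 10 from 82833951 to 82897724, a span that it shares with the lowly expressed Eid3. Anti-CD40 mice 2, 5 and 9 had 19.0, 22.5 and 18.7 FPKM, and controls had 15.4 to 21.4, with a median of 18.04. The groups overlapped, and the log2 fold change was 0.14 (95% interval -0.15 to 0.42, limma adjusted p = 0.414). With the Saa genes left out and rescaled it was 0.50 (limma adjusted p = 0.0101). Txnrd2, the mitochondrial reductase, fell from 14.2 ± 0.753 (SD, n = 6) to 4.77 ± 0.344 FPKM (SD, n = 3), for a log2 fold change of -1.56 (limma adjusted p = 1.90e-06), at a position in the table that is not its alone. The ratio of Txnrd1 to Txnrd2, which is free of that rescaling, was 3.23-fold higher after anti-CD40. It was 1.90 to 2.33 on the log2 scale in anti-CD40 livers against 0.12 to 0.57 in controls (exact permutation p = 0.0238, adjusted 0.0298).

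Gclc and Gclm encode the catalytic and the modifier subunit of glutamate-cysteine ligase, the rate-limiting enzyme of glutathione synthesis. Gclc, on chromosome 9 from 77754535 to 77794489, had an FPKM of 36.1, 36.5 and 37.7 in anti-CD40 mice 2, 5 and 9, and 29.3 to 53.7 in the control mice, with a median of 41.5. All 3 anti-CD40 values lay inside the range of the controls. Its log2 fold change was -0.16 (95% interval -0.52 to 0.20, limma adjusted p = 0.455).

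Gclm, on chromosome 3 from 122245557 to 122267215, had an FPKM of 59.4, 48.0 and 40.8 in anti-CD40 mice 2, 5 and 9, and 44.7 to 68.5 in the control mice, with a median of 56.1. In GENCODE the predicted genes Gm6061 and Gm17494 overlap it. Mouse 9 alone was below the lowest control. Its log2 fold change was -0.21 (95% interval -0.58 to 0.15, limma adjusted p = 0.318). The signs of both subunits turned when the Saa genes were left out (0.21 for Gclc and 0.15 for Gclm) and under quantile normalization (0.09 and 0.06). The log2 ratio of Gclc to Gclm differed between the groups by 0.056 (exact permutation p = 0.762, adjusted 0.762). It ran from -0.72 to -0.11 in the anti-CD40 mice and from -0.79 to -0.15 in the control mice.

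Nqo1 encodes the quinone reductase that is often read as an index of NRF2 activity. The anti-CD40 livers, mice 2, 5 and 9, had 8.91, 9.40 and 8.11 FPKM, and controls had 8.88 to 14.4, with a median of 12.4. The groups overlapped through control mouse 11, the lowest control. The means were 8.81 ± 0.654 (SD, n = 3) and 12.0 ± 2.33 (SD, n = 6), for a log2 fold change of -0.42 (95% interval -0.80 to -0.044) that did not pass the test (limma adjusted p = 0.0662). Without control mouse 4 the adjusted p was 0.0435, without control mouse 11 it was 0.0245, and with array weights it was 0.0284. With the Saa genes left out the log2 fold change shrank to -0.058 (limma adjusted p = 0.786). The gene lies on chromosome 8 from 107388225 to 107403206 on the minus strand in GENCODE, while the table gives it a wider span, 107256164 to 107558595, that also covers Mir140, Nfat5, Nob1 and Wwp2.

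**Figure D3:**
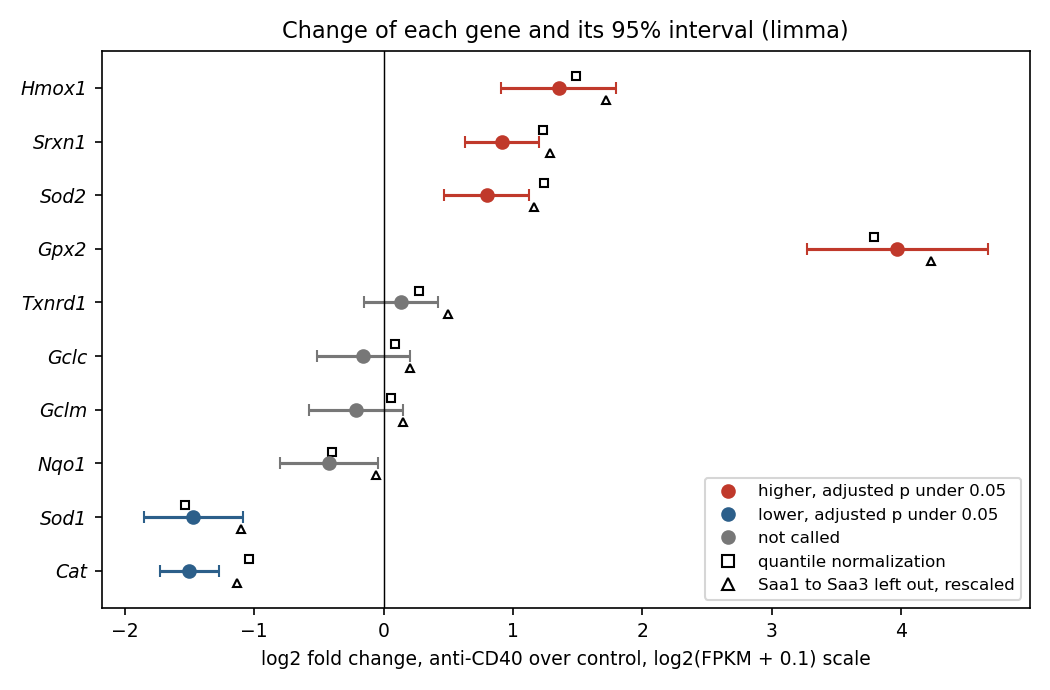
Log2 fold change of FPKM + 0.1 (anti-CD40 against control) for the 10 genes, with 95% intervals from limma (filled points, coloured by call), and under quantile normalization (squares) and with Saa1, Saa2 and Saa3 left out and rescaled (triangles). Gpx2 lies at 3.97 and Hmox1, Srxn1 and Sod2 at 0.80 to 1.35, Sod1 and Cat lie below -1 under every scaling shown, and the signs of Gclc and Gclm turn.

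Around the 10 genes, 118 genes of 7 related groups were followed, of which 113 passed the low-value filter. Of these, 22 (19.5%) were higher, 44 (38.9%) were lower and 47 were not called, beside 23.5% higher and 21.7% lower among all genes tested. With the Saa genes left out, 31 were higher and 30 lower, beside 5635 higher and 1647 lower among all genes. Counts given below for each group with the Saa genes left out stand beside this same split. Under quantile normalization 28 were higher and 36 lower. The split of all genes tested under quantile normalization is not given here, so these last counts cannot be set against it.

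Among the regulators of the pathway, 4 of 12 were higher, 2 lower and 6 not called, with a median log2 fold change of -0.12. Nfe2l2 itself, the gene for NRF2, had an FPKM of 32.0, 26.9 and 21.8 in anti-CD40 mice 2, 5 and 9 and 10.04 to 23.6 in the control mice. The groups overlapped, since mouse 9 was below control mouse 4. Its log2 fold change was 0.80 (limma adjusted p = 0.0258), and its adjusted p was 0.115 without anti-CD40 mouse 2, 0.0724 without mouse 5 and 0.0792 with no filter on low values. Keap1, its inhibitor, was at 30.5 ± 2.73 (SD, n = 3) and 38.9 ± 6.44 FPKM (SD, n = 6), with a log2 fold change of -0.34 (limma adjusted p = 0.0911) that became 0.025 with the Saa genes left out.

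Bach1, a repressor that competes with NRF2 on the Hmox1 gene, had 8.59 ± 0.382 (SD, n = 3) and 6.83 ± 0.489 FPKM (SD, n = 6), for a log2 fold change of 0.33 (limma adjusted p = 0.0257). That call was lost without any one of anti-CD40 mice 2, 5 and 9 (adjusted p of 0.107, 0.0636 and 0.0640) and without control mouse 11 (0.05002). Of the small MAF partners, Maff was higher (log2 fold change 1.20, limma adjusted p = 0.0167), though the groups overlapped and the adjusted p was 0.0673 without anti-CD40 mouse 5, 0.0577 without mouse 9 and 0.0599 with no filter. Mafg was lower (-0.54, limma adjusted p = 0.00588), but its adjusted p was 0.0867 under quantile normalization and 0.272 with the Saa genes left out. Mafk had -0.12 (limma adjusted p = 0.623) and 0.23 with the Saa genes left out. The remaining calls were Nfe2, a factor of blood cells (2.25, limma adjusted p = 0.00127), and Bach2, a factor of lymphocytes (-1.01, limma adjusted p = 0.0107), both named after their values were seen. Without anti-CD40 mouse 5 the regulators called fell from 6 to 3, and with the Saa genes left out 5 were higher and 0 lower.

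In the glutathione group, 2 of 19 genes were higher, 5 lower and 12 not called, with a median of -0.39 (5 higher and 3 lower with the Saa genes left out). Slc7a11, the cystine transporter and an NRF2 target, was at the floor in 5 control mice and at 0.0107 FPKM in the other, and reached 2.37, 1.74 and 1.24 in anti-CD40 mice 2, 5 and 9 (limma adjusted p = 6.40e-07). Every anti-CD40 mouse was above every control, and the gene passed the low-value filter only through the anti-CD40 mice. Gpx7, a peroxidase of the endoplasmic reticulum, rose by 0.76 on the log2 scale, from 3.34 ± 0.711 (SD, n = 6) to 5.62 ± 0.323 FPKM (SD, n = 3). After Gpx1, the largest called falls were those of Glrx5, a mitochondrial glutaredoxin of iron-sulfur cluster assembly (-0.90), and Chac2, which degrades glutathione (-0.89). The Chac2 call was lost without any one of the anti-CD40 mice (adjusted p of 0.0517 to 0.0808), with no filter (0.0762) and with the Saa genes left out (0.164).

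In the thioredoxin group, 1 of 19 genes was higher, 10 were lower and 8 were not called, with a median of -0.35 (3 higher and 8 lower with the Saa genes left out). With Txnrd2, the largest falls were those of Msra, a methionine sulfoxide reductase (-1.60), and Prdx4, the peroxiredoxin of the secretory pathway (-1.30). The gene that rose was Msrb3, another methionine sulfoxide reductase (0.66, limma adjusted p = 0.0187, 0.0777 without anti-CD40 mouse 2, 0.0509 without mouse 9 and 0.0532 with no filter).

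Enzymes that supply NADPH went both ways. Of 10 tested, 3 were higher and 6 lower, with a median of -0.40 (3 and 3 with the Saa genes left out). G6pdx, the entry enzyme of the pentose phosphate pathway, rose to 1.97 ± 0.178 FPKM (SD, n = 3) from 0.552 ± 0.161 (SD, n = 6), for a log2 fold change of 1.70 (limma adjusted p = 1.47e-04), and Pgd, which acts later in the same pathway, rose by 0.75. The mitochondrial malic enzyme Me2 rose by 1.66 on the log2 scale. In the other direction, the cytosolic malic enzyme Me1 fell from 54.0 ± 16.1 (SD, n = 6) to 15.1 ± 0.693 FPKM (SD, n = 3), for a log2 fold change of -1.78 (limma adjusted p = 1.69e-04). The NADP-dependent isocitrate dehydrogenases Idh2 (-1.39) and Idh1 (-1.21) were lower too.

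Of 32 genes of conjugation, detoxification and export, many of them NRF2 targets, 4 were higher, 15 lower and 13 not called, with a median of -0.48 (5 and 11 with the Saa genes left out). The glutathione transferases Gstt1, Gsta3 and Mgst3 had the largest falls. Gstt1 fell from 291 ± 65.1 (SD, n = 6) to 33.0 ± 3.77 FPKM (SD, n = 3), for a log2 fold change of -3.11 (limma adjusted p = 1.90e-06), Gsta3 had -2.53 and Mgst3 had -2.47. Gsta1 rose to 7.33 ± 3.56 FPKM (SD, n = 3) from 0.778 ± 0.627 (SD, n = 6), for a log2 fold change of 3.49 (limma adjusted p = 0.00560). Its reads could have been split with those of its close paralog Gsta2. Gsta2 was called lower, falling from 114 ± 71.1 (SD, n = 6) to 21.2 ± 5.35 FPKM (SD, n = 3), though the groups overlapped (log2 fold change -2.11, limma adjusted p = 0.0174). Like Gsta1, the carbonyl reductase Cbr3 (2.04) and the aldo-keto reductase Akr1b8 (1.67) were higher, with no overlap of the groups.

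Among the genes of heme and iron handling, the group of Hmox1, 5 of 14 were higher, 4 lower and 5 not called, with a median of 0.21 (7 and 4 with the Saa genes left out). The largest rises were in the plasma carriers hemopexin (Hpx, 2.93), haptoglobin (Hp, 2.26) and ceruloplasmin (Cp, 2.00), all known acute phase proteins. Hpx went from 1727 ± 402 (SD, n = 6) to 12890 ± 951 FPKM (SD, n = 3). Cd163, the haptoglobin-hemoglobin receptor of tissue macrophages, fell from 7.26 ± 3.73 (SD, n = 6) to 0.0634 ± 0.0561 FPKM (SD, n = 3), for a log2 fold change of -5.39 (limma adjusted p = 6.25e-06), beside the fall of the Kupffer cell markers. Cd163 passed the low-value filter only through the control mice, and the size of its fall rests on the value added before the logarithm, being -2.83 with 1 and -6.83 with 0.01. The ferritin light chain Ftl1 (-1.30, uncertain because near-identical pseudogene copies could take its reads) and the iron exporter Slc40a1 (-1.24) were lower. Summed red cell markers overlapped between the groups, with 4177 to 14321 FPKM in anti-CD40 livers against 7495 to 50534 in controls, the highest in mouse 4, and Hba-a1 was at the floor throughout.

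The group of Sod3 and the metal partners of the superoxide dismutases gave 3 higher, 2 lower and 2 not called of 7, with a median of -0.00 (3 and 1 with the Saa genes left out). Sod3, itself a superoxide dismutase, did not pass the test (log2 fold change -0.45, limma adjusted p = 0.119). Ccs, the chaperone that loads copper into SOD1, fell as Sod1 did, from 373 ± 41.8 (SD, n = 6) to 160.0 ± 10.9 FPKM (SD, n = 3), for a log2 fold change of -1.21 (limma adjusted p = 2.28e-05). The metallothioneins Mt2 (1.88) and Mt1 (1.70), which bind zinc and copper, and the zinc and iron importer Slc39a14 (1.30) rose. Slc30a10, a manganese exporter, had -0.41, a call that was lost without anti-CD40 mouse 5 or 9 (adjusted p of 0.0808 and 0.0783) and with the Saa genes left out (0.778). Among the genes named in these groups, Bach2, G6pdx, Me1, Msrb3, Chac2, Cp and Slc30a10 share their position in the table with another gene, and their values are less certain for that. None of the 7 groups was tested against other genes, and their main counts stand beside 23.5% higher and 21.7% lower among all genes tested. Their counts with the Saa genes left out stand beside the split of all genes under that rescaling, given above, in which most called genes were higher.

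**Figure D4:**
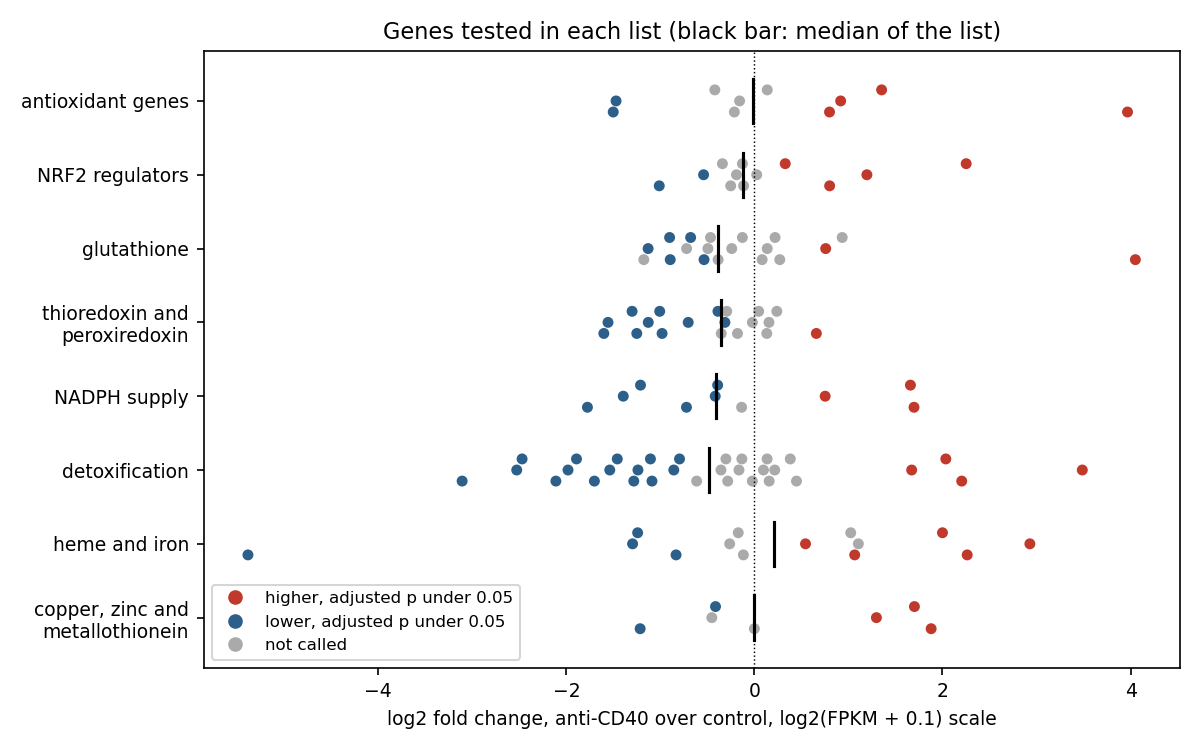
Log2 fold change of FPKM + 0.1 (anti-CD40 against control) of each gene tested, 1 point per gene, for the 10 antioxidant genes and the 7 related groups, coloured by limma call at an adjusted p of 0.05, with a black bar at each median. Medians lie between -0.48 for detoxification and 0.21 for heme and iron, and each group holds genes called in both directions.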

How the data were processed

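RNA from the livers of 9 mice was made into QuantSeq 3′ libraries and sequenced on an Illumina NextSeq. The authors aligned reads to mm10 with STAR (BaseSpace RNA-Seq Alignment 1.1.0), ran Cufflinks and Cuffdiff (application version 2.1.0), and deposited FPKM per gene and mouse, with a floor of 0.01. Their annotation, strand setting and any filter on the table are not given in the sources used here. The table holds no read totals, so precision rests on the spread between mice.

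Groups came from the sample labels. Left out were 15 genes whose value was the word FAIL in some mouse. The deposited FPKM were tested as log2(FPKM + 0.1) in the 13807 genes that averaged 0.1 or more, using limma 3.58.1 under R 4.3.3 (eBayes with trend, 2-sided, Benjamini-Hochberg adjustment over all genes tested, threshold 0.05). Gene pairs were tested with exact permutation over all 84 ways to choose 3 of 9 mice, in Python 3.11.15. Whole reads were recovered for 79.0% of 3149 low genes (within 0.05 reads in every mouse), too few for a test on counts. Scripts were tested on simulated data. The alternatives tried were a pseudocount of 1 or 0.01, a minimum mean FPKM of 1 or none, quantile and median of ratios scaling, the Saa genes left out, eBayes without trend or robust, array weights, and leaving out each mouse.

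The 10 genes and the related groups were chosen with earlier results of these data known. Outside the 10, genes were named by rule: Nfe2l2, Keap1, Bach1, Maff, Mafg and Mafk, the partner of each gene pair, and in each other group up to 3 rises and 3 falls with the largest log2 fold change among called genes without overlap of the groups. In the groups, Nfe2, Bach2, Gsta2 and Sod3 were named outside this rule. Promoters came from RefSeq, and Gclc and Hmox1 had no entry.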

Additional observations from a re-analysis of the deposited data

Results flagged for a closer look

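Among 24 results examined for a control mouse far from the other 5, 2 stood out, where chance gives about 1.2 (1 in 20). Both were control mouse 4, which was also the control highest in summed red cell and neutrophil markers. Its Hmox1 value, 15.7 FPKM, was the highest of the controls, with a gap to the next (10.2) that made up 0.696 of the controls' range, above the critical value of 0.625. Without this mouse the Hmox1 log2 fold change was 1.49. Its Gpx1 value, 7217 FPKM, was the lowest of the controls, with a gap to the next (9151) of 0.658 of the range.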

How the results depend on the processing

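Hmox1, Srxn1, Sod2 and Cat kept their direction and their call under all 20 alternatives, and Gpx2 under the 19 that gave it a value, since a mean FPKM of at least 1 left it out. The log2 fold changes ran over 1.28 to 1.72 for Hmox1, 0.84 to 1.28 for Srxn1, 0.73 to 1.24 for Sod2, 1.58 to 5.67 for Gpx2 and -1.53 to -1.04 for Cat. Sod1 ran over -1.56 to -1.10 and was called lower except with no filter on low values. There it was -1.47 and missed the threshold (adjusted p = 0.0727 from limma). Quantile normalization turned Gclc to 0.090 and Gclm to 0.060. Leaving out the Saa genes turned Gclc to 0.21, Gclm to 0.15, Keap1 to 0.025, Mafk to 0.23 and Hmox2 to 0.18, and brought Txnrd1 (0.50) past the threshold. This rescaling multiplies all genes of a library by the same factor, which raises anti-CD40 values against control values. It moved apart libraries whose median ratios were level before. Since 0.1 is added afterwards, the shift is smaller for genes with low values. Array weights brought Nqo1 (-0.45) past the threshold, while leaving out the Saa genes shrank it to -0.058. The causes of the Sod1 and Nqo1 moves were not tested.

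With each mouse left out in turn, or control mouse 4 and anti-CD40 mouse 5 together (added after the data were seen), Nqo1 lay between -0.52 and -0.36 and passed the threshold without control mouse 4 or 11, Hmox2 between -0.35 and 0.13, and the regulators called between 3 and 7. The log2 differences of the gene pairs ran from 2.21 to 2.31 for Sod2 and Sod1, -0.092 to 0.21 for Gclc and Gclm (below 0 without anti-CD40 mouse 9 or control mouse 8 or 12), 1.17 to 1.81 for Hmox1 and Hmox2, 1.55 to 1.77 for Txnrd1 and Txnrd2, and 4.75 to 5.33 for Gpx2 and Gpx1. With 2 anti-CD40 mice the smallest exact permutation p is 0.0714 (0.0893 adjusted), so no pair can pass the threshold. Of 39 results on other genes named by rule, 28 kept direction and call throughout. No paired analysis was possible because no mouse number occurs in both groups. Precision is limited by 3 anti-CD40 mice, by the unknown depth, and by low counts for Gpx2 and Slc7a11.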
